A study of Mus musculus with 6 samples.

Results

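Expression of 10 inflammatory genes was followed in 6 RNA-Seq libraries labeled as C2C12 cells, cultured mouse myoblasts able to form myotubes in low serum. They comprise the cytokines *Tnf*, *Il1a*, *Il1b* and *Il6*, the IL-1 receptor antagonist *Il1rn*, the enzymes *Nos2*, *Arg1* and *Ptgs2*, and the NF-κB inhibitors *Nfkbia* and *Tnfaip3*. The genes were chosen by name, with no threshold on a value but with earlier results of these data known, and all 10 were among the 23231 genes listed in at least 1 library. Both groups expressed dCas9-KRAB, a nuclease-dead Cas9 joined to a KRAB repressor domain, from a lentivirus, were selected with puromycin and were collected on day 5 of differentiation in 2% horse serum. The 3 dCas9-KRAB libraries (control) carried no enhancer sgRNA, and the 3 dCas9-KRAB-En5 libraries also carried 2 sgRNAs against Myog-En5, an enhancer of the myogenic factor gene *Myog*. The control has no guide aimed elsewhere, so carrying any sgRNA and repression of the enhancer cannot be told apart. The sources used here do not say whether the replicates were separate cultures, so p-values measure the spread between these libraries, which may be technical. The study's list gives the 2 guide sequences that define the dCas9-KRAB-En5 group, shown here 5′ to 3′ with the PAM in capitals.
Myog-En5 sgRNA1: gaaggggttactgtcggcagAGG
Myog-En5 sgRNA2: gaccggaagattgaaccactGGG

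TNF and IL-1 bind cell surface receptors whose adaptors activate the IκB kinase, which marks IκBα, the product of *Nfkbia*, for destruction and so frees NF-κB to enter the nucleus. NF-κB then drives the cytokine genes themselves, *Ptgs2* (cyclooxygenase-2, the inducible enzyme of prostaglandin synthesis) and *Nos2* (inducible nitric oxide synthase), together with its own brakes *Nfkbia* and *Tnfaip3* (the ubiquitin-editing protein A20). Macrophages are a major source of these transcripts, and *Nos2* and *Arg1*, which compete for arginine, are the usual signs of classical and alternative activation. Myoblasts are known to respond to TNF and IL-1.

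Promoters are shown for *Ptgs2*, *Tnf*, *Nfkbia*, *Tnfaip3* and *Il1b*, the members called in at least 1 fit for which a promoter was matched, and for *Il6*, a cytokine gene whose fitted difference was below 0. Each line gives the 250 bases before the RefSeq transcription start (GRCm38.p6), 5′ to 3′ on the coding strand, with matches to the κB consensus in capitals.
*Ptgs2* promoter, chr1:150099781-150100030, plus strand: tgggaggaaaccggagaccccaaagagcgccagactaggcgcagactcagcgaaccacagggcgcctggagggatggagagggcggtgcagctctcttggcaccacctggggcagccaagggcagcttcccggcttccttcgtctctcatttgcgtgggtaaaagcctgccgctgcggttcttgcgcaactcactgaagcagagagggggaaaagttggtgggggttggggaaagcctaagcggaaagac
*Tnf* promoter, chr17:35202008-35202257, minus strand: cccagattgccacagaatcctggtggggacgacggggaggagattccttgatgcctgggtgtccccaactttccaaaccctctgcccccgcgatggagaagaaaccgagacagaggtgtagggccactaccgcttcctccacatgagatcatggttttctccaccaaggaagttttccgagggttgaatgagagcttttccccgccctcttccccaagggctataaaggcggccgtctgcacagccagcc
*Nfkbia* promoter, chr12:55492648-55492897, minus strand: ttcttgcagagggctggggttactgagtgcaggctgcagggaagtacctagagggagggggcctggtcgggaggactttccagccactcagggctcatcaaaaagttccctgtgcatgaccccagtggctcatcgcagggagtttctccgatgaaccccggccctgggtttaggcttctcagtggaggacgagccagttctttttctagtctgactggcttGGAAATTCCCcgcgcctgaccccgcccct
*Tnfaip3* promoter, chr10:19015411-19015660, minus strand: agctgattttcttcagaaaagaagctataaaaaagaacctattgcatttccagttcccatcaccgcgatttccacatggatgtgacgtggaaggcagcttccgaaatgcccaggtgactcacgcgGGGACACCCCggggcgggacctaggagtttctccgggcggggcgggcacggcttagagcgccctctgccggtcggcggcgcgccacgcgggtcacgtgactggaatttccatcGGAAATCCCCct
*Il1b* promoter, chr2:129371140-129371389, minus strand: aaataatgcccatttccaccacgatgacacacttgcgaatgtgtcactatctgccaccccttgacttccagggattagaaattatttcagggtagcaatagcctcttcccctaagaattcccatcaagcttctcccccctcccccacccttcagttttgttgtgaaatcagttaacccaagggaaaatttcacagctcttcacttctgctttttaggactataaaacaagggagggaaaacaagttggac
*Il6* promoter, chr5:30012864-30013113, plus strand: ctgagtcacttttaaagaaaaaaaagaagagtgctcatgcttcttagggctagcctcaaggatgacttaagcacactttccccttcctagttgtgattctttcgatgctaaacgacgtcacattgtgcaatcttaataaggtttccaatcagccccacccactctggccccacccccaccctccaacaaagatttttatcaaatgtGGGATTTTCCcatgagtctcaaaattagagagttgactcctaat
RefSeq windows of 300 bases (250 before and 50 after the start) were found for 8 of the 10 genes, and *Tnfaip3* is shown for the first of its starts. That RefSeq start lies inside the *Tnfaip3* span given below, which comes from GENCODE. Nearly all bases shown before it, with both κB matches, thus fall within the gene as annotated there. The κB consensus, searched on both strands, matched the first window of 3 of the 8 genes and 8.46% of the 32851 RefSeq promoters. Matches began at -29 in *Nfkbia*, at -44 in *Il6*, and at -125 and -12 in *Tnfaip3*, counted from the start, whereas none lay in the windows of *Ptgs2*, *Tnf*, *Il1a*, *Il1b* or *Il1rn*. The AP-1 motif TGANTCA matched the first windows of *Il1a*, *Il1rn*, *Il6* and *Tnfaip3* and 7.81% of all promoters, and the CRE core ACGTCA matched those of *Il6*, *Ptgs2* and *Tnfaip3* and 7.51% of all promoters, none of these motifs overlapping a κB match. On GRCm38, *Ptgs2* spans chr1:150100031-150108227 (plus strand), *Tnf* chr17:35199381-35202007 (minus strand), *Nfkbia* chr12:55489410-55492647 (minus strand), *Tnfaip3* chr10:19000910-19015657 (minus strand) and *Il6* chr5:30013114-30019981 (plus strand). *Il1a* at chr2:129299610-129309972 (minus strand), *Il1b* at chr2:129364570-129371139 (minus strand) and *Il1rn* at chr2:24336853-24351494 (plus strand) share a chromosome, while *Nos2* lies at chr11:78920787-78960254 (plus strand) and *Arg1* at chr10:24915221-24927484 (minus strand). A match describes letters only, and sites outside these windows were not searched.

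The libraries held 31831093 to 73988425 counts, and a floor of 3 counts corresponded to 0.0405 to 0.0942 CPM (counts scaled to library size). *Myog* stood at 1065, 1224 and 1118 TPM in dCas9-KRAB replicates 1 to 3 and at 0.379, 0 and 0 TPM in dCas9-KRAB-En5 replicates 1 to 3 (edgeR adjusted p = 5.34e-05). All 10 muscle markers were lower in dCas9-KRAB-En5, where their summed level was 14.9 to 23 TPM against 16629 to 19240 TPM, led by *Mylpf*. Macrophage markers were present in every library although the cells are labeled as myoblasts: of 17, 10 were at 10 TPM or more in all 6 libraries, led by *Lyz2* (lysozyme), and their summed level was 6025 to 8187 TPM in dCas9-KRAB and 12508 to 18707 TPM in dCas9-KRAB-En5. Of these 17 only *Adgre1* was called, at 17.7, 7.62 and 9.09 TPM against 135, 122 and 29.6 TPM (edgeR adjusted p = 0.00706, and 0.0119 when scaled to the macrophage markers), while the complement genes *C1qa*, *C1qb* and *C1qc* did not exceed 0.982 TPM in any library. *Lyz2* made up a large part of the sums, at 4815, 1896 and 2808 TPM against 13210, 6938 and 11005 TPM (edgeR adjusted p = 0.0869). Of the 15 macrophage markers tested, 10 had estimates above 0 and 5 below 0, with a median log2 fold change of 0.56. The myoblast factors *Myod1* and *Myf5* were at 33.8 to 111 TPM and 2.3 to 4.67 TPM in dCas9-KRAB but at 0 to 0.0761 TPM and 0 to 0.0566 TPM in dCas9-KRAB-En5, where *Lyz2* was at 6938 to 13210 TPM. The defining markers of the labeled cell type were thus near 0 in dCas9-KRAB-En5, and whether the inflammatory transcripts came from C2C12 cells or from other cells in the libraries was not tested. The other marker lists were low: summed levels were at most 12.5 TPM for 8 neutrophil markers (led by *S100a8*) and at most 1.2 TPM for mast cell, T or NK cell, B cell, dendritic cell and endothelial markers, while 8 fibroblast markers, led by *Col1a1*, summed to 70.3 to 206 TPM in dCas9-KRAB and 20.9 to 39.2 TPM in dCas9-KRAB-En5. In bulk RNA, fewer cells of a type and less RNA per cell cannot be told apart. dCas9-KRAB-En5 replicate 3 stood apart, listing 13991 genes against 17084 to 19395 elsewhere, and it had the lowest TPM of its group for 77% of the 14378 tested genes, so results are also given without it.

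Levels of the 10 genes spanned more than 3 orders of magnitude in TPM, which scales counts by gene length and library. In dCas9-KRAB cells *Nfkbia* was highest at 105 ± 40.4 TPM (SD, n = 3), above *Tnf* at 26.4 ± 12.7 TPM and *Nos2* at 13.9 ± 13.6 TPM, which overlapped each other. *Il1rn*, *Ptgs2*, *Tnfaip3*, *Il1b* and *Il6* followed with means of 3.64 to 1.27 TPM; *Ptgs2* to *Il6* overlapped from neighbor to neighbor. *Il1a* and *Arg1* were at or near 0. In dCas9-KRAB-En5 cells the order by mean was *Nfkbia*, *Ptgs2*, *Tnf*, *Nos2*, *Il1b*, *Tnfaip3*, *Il1rn*, *Il6*, *Il1a* and *Arg1*, and all neighbors overlapped except *Il1a* and *Arg1*. By mean, *Ptgs2* was thus in the fifth place in dCas9-KRAB and in the second in dCas9-KRAB-En5, where replicate 1 held 349 TPM. In dCas9-KRAB-En5 replicate 2 it was below *Nos2* (150 against 163 TPM). In replicate 3 it was below *Tnf* (8.95 against 60.1 TPM).

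**Figure D1:**
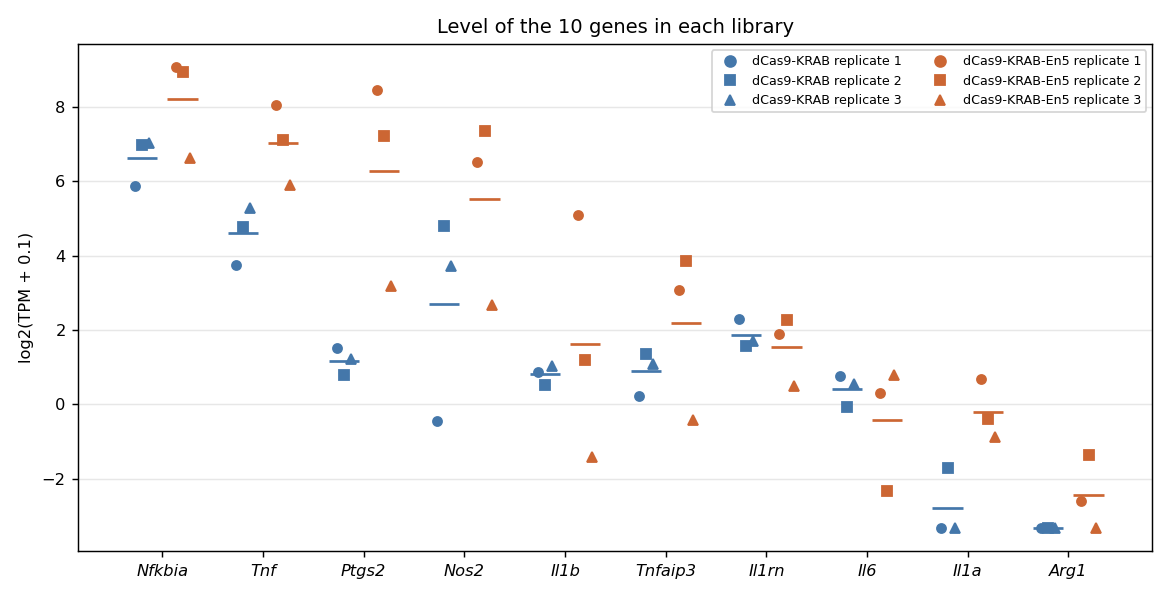
Level of each gene as log2(TPM + 0.1) in the 3 dCas9-KRAB libraries (blue) and the 3 dCas9-KRAB-En5 libraries (orange), with the replicate number as the symbol and the group mean as a line. All orange points lie above all blue points for *Tnf*, *Ptgs2* and *Il1a*, and the orange triangle (replicate 3) is the lowest of its group for 8 of the 9 tested genes.

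*Ptgs2* was the one member that passed both cutoffs in the comparison of all 6 libraries (adjusted p up to 0.01, log2 fold change of 1 or more in size), and it was higher in dCas9-KRAB-En5. Its level was 2.75, 1.63 and 2.25 TPM in dCas9-KRAB replicates 1 to 3 (342, 280 and 462 counts) and 349, 150 and 8.95 TPM in dCas9-KRAB-En5 replicates 1 to 3 (33867, 11676 and 938 counts). The control libraries lay close together, whereas the dCas9-KRAB-En5 libraries differed among themselves by more than 10-fold, with replicate 3 nearest to the controls and still above them. The log2 fold change was 5.77 (SE 0.94, 54.5-fold; edgeR adjusted p = 0.00234), and among all tested genes 1.52% were called higher and 4.67% lower. It was 4.63 without replicate 1 of dCas9-KRAB-En5 and 6.22 without replicate 3, both called. Leaving out dCas9-KRAB replicate 1, 2 or 3 kept a log2 fold change of 5.91, 5.51 or 5.73 but gave adjusted p of 0.0417, 0.0213 or 0.0101, past the cutoff. limma on log2(TPM + 1) and log2(TPM + 0.1) gave adjusted p of 0.0209 and 0.0105, also past it. Calls were fewer for all genes in these fits. Against 219 called higher on all 6 libraries, 6, 20 and 23 were called without dCas9-KRAB replicate 1, 2 or 3. The limma fits called 32 and 66 higher.

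*Tnf* had the next smallest p among the members. It stood at 13.4, 27.1 and 38.7 TPM in dCas9-KRAB replicates 1 to 3 and at 265, 137 and 60.1 TPM in dCas9-KRAB-En5 replicates 1 to 3 (597 to 2841 and 2256 to 9193 counts). The groups did not overlap, but the highest control and the lowest dCas9-KRAB-En5 library were less far apart than the libraries within either group. The log2 fold change was 2.25 (SE 0.54, 4.76-fold), with an edgeR adjusted p of 0.017 that missed the cutoff. With the replicate number as a block it was 2.26 at an adjusted p of 0.00936 and *Tnf* was called, as it was without dCas9-KRAB-En5 replicate 3 (log2 fold change 2.33, adjusted p = 0.00467). In all, 4 of 15 alternative fits called it. Without dCas9-KRAB replicate 1, 2 or 3 the edgeR adjusted p was 0.0751, 0.0827 or 0.0399, and without dCas9-KRAB-En5 replicate 1 it was 0.0623. limma on log2(TPM + 1) and log2(TPM + 0.1) gave 0.0277 and 0.0216, also past the cutoff.

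The IL-1 genes did not move as a set. *Il1b*, the secreted and processed form, was at 1.72, 1.33 and 1.94 TPM in dCas9-KRAB and at 33.8, 2.2 and 0.275 TPM in dCas9-KRAB-En5 replicates 1 to 3 (1366, 71 and 12 counts). A single library held the high value, the second lay just above the controls, and the third lay below all of them. Its log2 fold change of 2.40 (SE 1.11, adjusted p = 0.156) was 0.58 with the replicate block and -0.85 without dCas9-KRAB-En5 replicate 1. *Il1a*, which encodes the cell-associated form, had 0, 15 and 0 counts in dCas9-KRAB and 63, 22 and 20 counts in dCas9-KRAB-En5, or 0 to 0.203 TPM against 0.443 to 1.51 TPM. These groups did not overlap, but all levels were low and the log2 fold change of 3.53 (SE 1.38) had an adjusted p of 0.098. The low-count filter was met only through the dCas9-KRAB-En5 libraries, which favored this direction. *Il1a* shares 222 exonic bases with *Gm14023* and *Il1b* 25 with *Il1bos*, each on the opposite strand, and without the counting's strand setting reads from the partners cannot be assigned here. *Il1rn*, whose product blocks the IL-1 receptor, was at 4.85, 2.89 and 3.18 TPM against 3.62, 4.7 and 1.32 TPM, groups that overlapped throughout (log2 fold change -0.51, SE 0.47, adjusted p = 0.486).

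*Il6*, a cytokine that myotubes also secrete, showed no difference larger than its spread. It was at 1.59, 0.847 and 1.36 TPM in dCas9-KRAB and at 1.13, 0.0972 and 1.62 TPM in dCas9-KRAB-En5, where replicate 2 held 4 counts and replicate 3 the highest level of all 6 libraries. The log2 fold change was -0.17 (SE 0.97, adjusted p = 0.922). *Il6* was the single tested member for which dCas9-KRAB-En5 replicate 3 was the highest of its group, and without that library the estimate was -1.60 (adjusted p = 0.18).

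The 2 arginine-consuming enzymes were far apart in level. *Nos2* was at 0.639, 27.9 and 13.1 TPM in dCas9-KRAB replicates 1 to 3 and at 92.2, 163 and 6.22 TPM in dCas9-KRAB-En5 replicates 1 to 3. The controls themselves were far apart, since replicate 1 held 77 counts and replicate 2 held 4627, and dCas9-KRAB-En5 replicate 3 lay between controls. The log2 fold change of 2.21 (SE 1.03) had an adjusted p of 0.157, and of 0.0436 without dCas9-KRAB-En5 replicate 3. *Arg1* had 0 counts in every dCas9-KRAB library and 3, 11 and 0 counts in dCas9-KRAB-En5 replicates 1 to 3, at most 0.291 TPM. It did not pass the low-count filter, and a count of 0 allows up to the floor of 3 counts in those libraries, so a difference was not detectable at this depth.

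Of the NF-κB inhibitors, *Nfkbia* was the most abundant member in both groups. It was at 58, 126 and 130 TPM in dCas9-KRAB and at 538, 493 and 99.2 TPM in dCas9-KRAB-En5, so that replicates 1 and 2 of dCas9-KRAB-En5 lay above all controls and replicate 3 among them. The log2 fold change was 1.48 (SE 0.52, 2.79-fold, adjusted p = 0.0713). *Tnfaip3* was at 1.06, 2.46 and 2.02 TPM against 8.35, 14.5 and 0.647 TPM, with replicate 3 of dCas9-KRAB-En5 below every control. Its log2 fold change was 1.59 (SE 0.68, adjusted p = 0.124). Without dCas9-KRAB-En5 replicate 3 both were called, *Nfkbia* at a log2 fold change of 1.69 (adjusted p = 0.00677) and *Tnfaip3* at 2.00 (adjusted p = 0.00383).

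In all, 1 of the 9 tested members was called higher and 0 lower by edgeR on the 6 libraries, and the unadjusted p was below 0.05 for *Tnf*, *Il1a*, *Ptgs2*, *Nfkbia* and *Tnfaip3*, all with estimates above 0, as for 16.6% of all tested genes. Estimates were above 0 for 7 members and below 0 for *Il1rn* and *Il6*, with a median log2 fold change of 2.21 against 0.08 over all tested genes. *Ptgs2* and *Tnf* were called with the replicate block, where 3.94% of all genes were called higher, and by DESeq2, where 5.88% were. Without the low-count filter *Tnf*, *Il1b*, *Nos2* and *Ptgs2* were called beside 4.32% of genes, and at an adjusted p of 0.05 with no fold cutoff *Tnf* and *Ptgs2* were, beside 7.43% of genes. Without dCas9-KRAB-En5 replicate 3, *Tnf*, *Ptgs2*, *Nfkbia* and *Tnfaip3* were called, but the share of all genes called higher was then 11.7%. The TPM of all dCas9-KRAB-En5 libraries exceeded that of all dCas9-KRAB libraries for *Tnf*, *Il1a* and *Ptgs2*, 3 of 9 members, and for 7.76% of tested genes. *Il1a*, at 0, 15 and 0 counts in dCas9-KRAB, met the low-count filter only through dCas9-KRAB-En5, and *Arg1* did not meet it. The filter thus favored the direction of *Il1a*, and its place in these counts is no support for a difference. Replicate 3 was the lowest dCas9-KRAB-En5 library for 8 of the 9 members, close to the 77% of all tested genes for which this held.

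**Figure D2:**
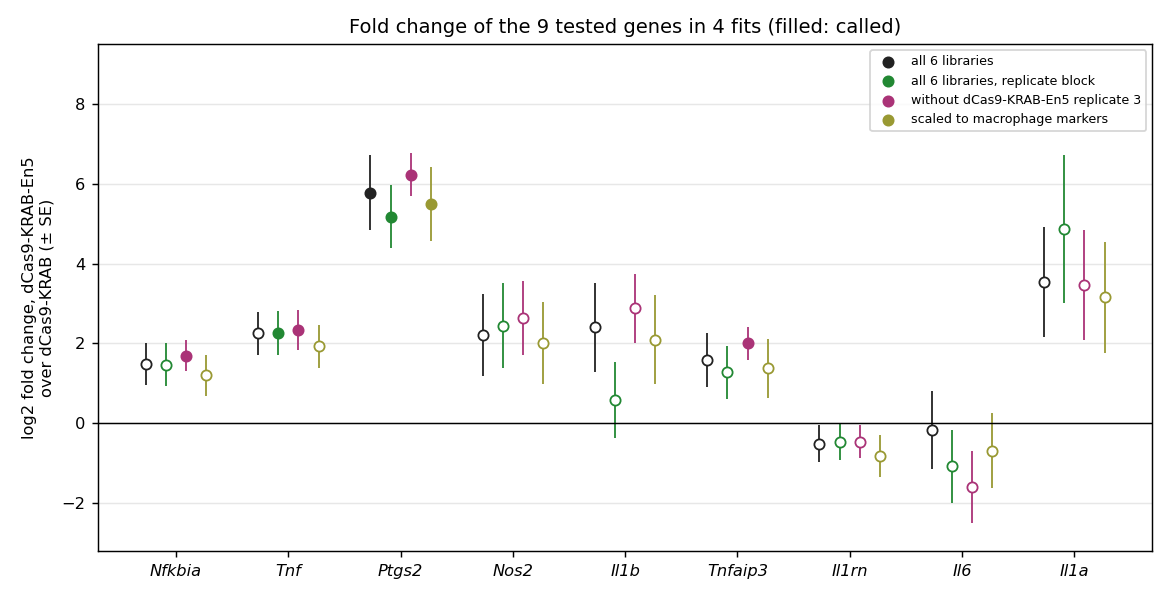
Log2 fold change (dCas9-KRAB-En5 over dCas9-KRAB) of the 9 tested genes with bars for the SE, in 4 fits: all 6 libraries, the same with a replicate block, without dCas9-KRAB-En5 replicate 3, and with libraries scaled to macrophage markers. Filled points passed both cutoffs. *Ptgs2* is filled in all 4 fits, *Tnf* in 2 of them, and *Nfkbia* and *Tnfaip3* in 1.

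Since macrophage markers were higher in sum in dCas9-KRAB-En5, 8 members with more than 3 counts in every library were also expressed relative to the mean log2 level of the 17 markers in the same library. All 17 markers weighed equally in the mean, including low ones such as *C1qa*, *C1qb* and *C1qc*, and 15 of them passed the low-count filter. That mean was 5.36, 5.34 and 5.27 log2 CPM in dCas9-KRAB replicates 1 to 3 and 5.87, 5.74 and 5.50 log2 CPM in dCas9-KRAB-En5 replicates 1 to 3. Relative to it, *Ptgs2* remained higher in every dCas9-KRAB-En5 library than in any control, at -2.27, -3.24 and -2.60 against 3.84, 2.63 and -0.62 on the log2 scale, a difference of means of 4.66. *Tnf* was at -1.47, -0.70 and -0.00 against 1.96, 1.01 and 0.65, a difference of 1.93. For both the exact two-sided permutation p was 0.1, the smallest that 3 against 3 libraries allow (Benjamini-Hochberg adjusted over 8 members, 0.4), so this design cannot reach 0.05. The other 6 members overlapped between the groups, with differences from -1.34 for *Il6* to 2.37 for *Nos2* and permutation p of 0.2 to 0.9. How many of all tested genes lay apart on this scale was not computed. The choice of markers mattered: relative to *Csf1r*, *Adgre1* and *Cd68* alone *Tnf* overlapped between the groups (difference 0.91, permutation p = 0.2), *Il1rn* was lower in every dCas9-KRAB-En5 library (-1.83, p = 0.1) and *Ptgs2* stayed apart (3.64, p = 0.1). With these 3 markers the difference was 0.09 for *Nfkbia*, that for *Tnfaip3* turned from 0.81 to -0.21 and that for *Il1b* from 0.31 to -0.71. In the gene-wise fit scaled to the macrophage markers, the median of all genes was -0.26 in place of 0.08, and *Ptgs2* was still the one member called (log2 fold change 5.49, adjusted p = 0.00206). Beyond this scaling, the part of the macrophage signal in the member differences was not tested.

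**Figure D3:**
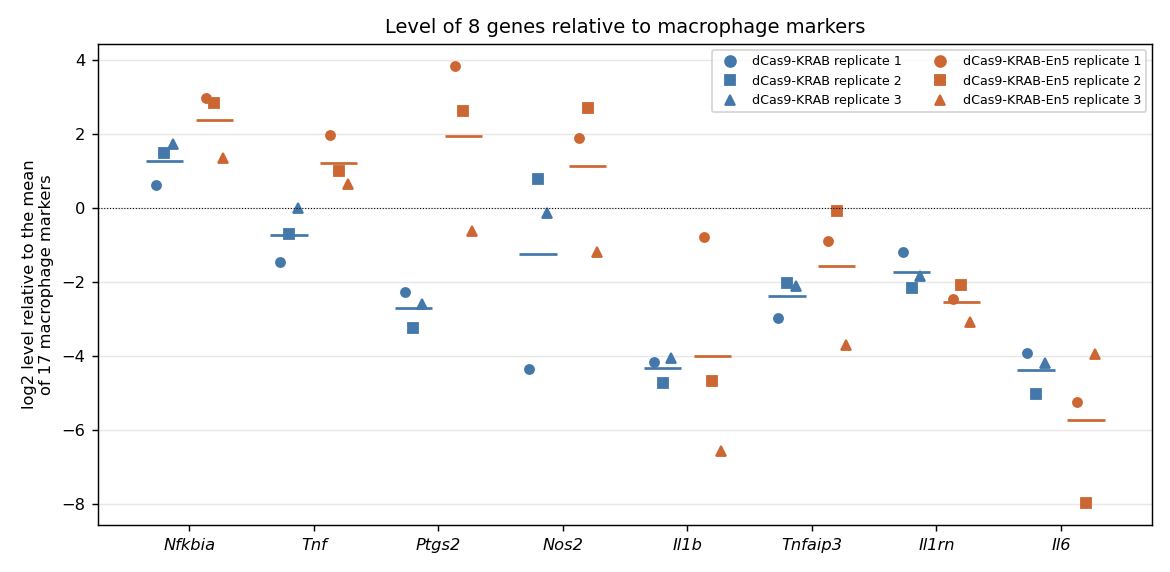
Level of 8 genes relative to the mean of 17 macrophage markers in the same library, on the log2 scale, in dCas9-KRAB (blue) and dCas9-KRAB-En5 (orange) libraries, with the replicate number as the symbol and group means as lines. The groups are apart for *Ptgs2* and *Tnf* and overlap for the other 6 genes; with 3 markers in place of 17, *Tnf* overlaps.

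Genes around the members were taken from 9 lists of 161 genes, of which 133 were tested, 8 were called higher and 4 lower. Among all tested genes 1.52% were called higher and 4.67% lower, and 3.94% were called higher with the replicate block. Lower calls were more frequent in other fits: 976 of 14378 genes with the block and 1423 of 16436 by DESeq2. Without dCas9-KRAB-En5 replicate 3 they were 2134 of 15265. Of the 8 genes called higher, 7 lost the call when dCas9-KRAB replicate 1, 2 or 3 was left out, each in turn, and *Ccl22* lost it without replicate 1 (adjusted p = 0.0166). Of the 4 list genes called lower, *Ptgis*, *Cxcl9* and *Il12a* stayed called without any one control and *Cxcl10* lost the call without replicate 2 (0.0216). Over all tested genes, calls higher fell from 219 to 6, 20 and 23 without dCas9-KRAB replicate 1, 2 or 3. Calls lower fell from 671 to 216, 305 and 374, so these losses were general. *Ccl22* met the low-count filter only through dCas9-KRAB-En5, and *Cxcl9* and *Il12a* only through dCas9-KRAB, which favored their directions. Among 17 NF-κB and IκB kinase subunits (17 tested, 1 higher, 0 lower, median log2 fold change 0.29), *Nfkbiz*, which encodes the nuclear cofactor IκBζ, rose. It was at 2.42, 1.52 and 2.07 TPM in dCas9-KRAB and at 74.2, 38.8 and 2.59 TPM in dCas9-KRAB-En5 (log2 fold change 3.78, SE 0.78, adjusted p = 0.00824). It was far above the controls in replicates 1 and 2 and just above them in replicate 3. The call was lost with libraries scaled to macrophage markers (adjusted p = 0.011), by total counts (0.0171), with both limma fits (0.0915 and 0.0715), without dCas9-KRAB-En5 replicate 1 (0.0126) and without any one control library (0.0326 to 0.0665). Of the DNA-binding subunits, *Rela* was at 26, 86.1 and 59.9 TPM against 50.7, 58.3 and 27.1 TPM (edgeR adjusted p = 0.488), so its groups overlapped. *Rel* was at 0.612, 0.648 and 0.407 TPM against 11.9, 5.33 and 0.328 TPM (log2 fold change 2.94, edgeR adjusted p = 0.0287). It was called higher by DESeq2 and without dCas9-KRAB-En5 replicate 3. *Nfkb1*, *Nfkb2* and *Relb* had edgeR adjusted p of 0.424, 0.447 and 0.253. These subunits were named after their values were seen.

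Feedback inhibitors and mRNA decay factors held more genes called higher than any other list, 3 of 18 tested, and 0 called lower. The share of all tested genes called higher was 1.52%. With the replicate block 5 were called higher and 0 lower, beside 3.94% of all genes called higher. Without dCas9-KRAB-En5 replicate 3 the counts were 9 and 1, beside 11.7% of all genes called higher and 2134 of 15265 called lower. Either limma fit called 1 in all, beside 32 genes called higher over all genes on log2(TPM + 1) and 66 on log2(TPM + 0.1). Of the list, 0 were called without dCas9-KRAB replicate 1, 2 or 3, beside 6, 20 and 23 of all genes called higher. The median log2 fold change was 1.54, with 15 estimates above 0. *Zfp36l1*, a protein that speeds decay of AU-rich mRNAs such as cytokine mRNAs, was at 6.48, 19 and 9.74 TPM in dCas9-KRAB and at 424, 294 and 25.1 TPM in dCas9-KRAB-En5 (log2 fold change 3.99, SE 0.74, adjusted p = 0.00496). *Socs3*, the inhibitor of IL-6 family signaling, was at 15.1, 65.5 and 58.8 TPM against 1109, 532 and 185 TPM (log2 fold change 3.41, SE 0.68, adjusted p = 0.00656). The immediate early gene *Ier3* was at 76.5, 117 and 126 TPM against 1444, 1527 and 185 TPM (log2 fold change 2.88, SE 0.58, adjusted p = 0.00748). For all 3 the groups did not overlap, and replicate 3 was again the lowest dCas9-KRAB-En5 library. Without any one control their adjusted p was 0.0226 to 0.0572.

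Receptors and adaptors of TNF, IL-1 and IL-6 gave 0 calls by edgeR in 20 tested genes, with a median log2 fold change of 0.83. Called higher were 1 with the replicate block, 6 without dCas9-KRAB-En5 replicate 3 and 2 by DESeq2. The shares of all genes called higher in these fits were 3.94%, 11.7% and 5.88%. On all 6 libraries *Irak3*, *Traf6* and *Il6ra* were below 0.05 in edgeR adjusted p. The 2 most abundant were the TNF receptor *Tnfrsf1a*, at 35.3, 110 and 79.7 TPM against 67.9, 82 and 33.4 TPM, and the adaptor *Myd88*, at 57.3, 91.8 and 89.7 TPM against 42.3, 65.5 and 38.6 TPM. Both overlapped between the groups. The IL-1 receptor *Il1r1* did not exceed 0.614 TPM in any library, whereas *Tnfrsf1a* was present in all 6.

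Of 12 tested inflammasome and IL-1 processing genes, 1 was called higher and 0 lower (2 and 1 with the block), with a median log2 fold change of 0.01. *Txnip*, a thioredoxin-binding protein also known as a glucose-responsive gene, was at 154, 133 and 149 TPM in dCas9-KRAB and at 1862, 1599 and 497 TPM in dCas9-KRAB-En5 (log2 fold change 2.86, SE 0.50, adjusted p = 0.00373). It is not an enzyme that cleaves IL-1: *Casp1*, which does, was at 12.6, 5.55 and 6.33 TPM against 12.6, 9.1 and 4.15 TPM.

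In arginine metabolism 1 of 13 tested genes was called higher and 0 lower (2 and 1 with the block), with a median log2 fold change of -0.41. *Odc1*, ornithine decarboxylase, the first enzyme of polyamine synthesis downstream of arginase, was at 105, 131 and 118 TPM in dCas9-KRAB and at 3966, 3042 and 476 TPM in dCas9-KRAB-En5 (16-fold, SE 0.62 on the log2 scale, adjusted p = 0.00171). Its lowest dCas9-KRAB-En5 library was still above the highest control. The other arginase gene, *Arg2*, did not exceed 0.198 TPM in any library.

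Among 15 tested genes of prostanoid and leukotriene synthesis, 0 were called higher and 1 lower (0 and 2 with the block), with a median log2 fold change of 0.49. *Ptgis*, the synthase that makes prostacyclin from the cyclooxygenase product, was at 45.6, 91.4 and 63.2 TPM in dCas9-KRAB and at 0.0368, 0.368 and 0.255 TPM in dCas9-KRAB-En5 (2, 16 and 15 counts; log2 fold change -8.27, SE 0.86, adjusted p = 0.000109). *Ptgs2* and *Ptgis*, consecutive enzymes of that route, thus differed in opposite directions. Whether both transcripts came from the same cells was not tested. *Ptges*, which makes prostaglandin E2 from the same product, was at 0.591, 1.29 and 1.19 TPM against 4.54, 4.85 and 2.02 TPM, with an adjusted p of 0.0487.

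Activation markers of both classes had more estimates below 0 than above 0, at 6 against 4 for alternative and 9 against 3 for classical markers. Of 16 alternative activation markers, *Chil3*, *Retnla*, *Mrc1* and *Cd163* had no counts in any library, and of the 10 tested 1 was called higher and 0 lower (1 and 3 with the block), with a median log2 fold change of -1.41. The called gene was the chemokine *Ccl22*, with 0, 2 and 0 counts in dCas9-KRAB and 600, 286 and 44 counts in dCas9-KRAB-En5 (adjusted p = 0.000548), a ratio of pooled, depth-scaled counts of 784 with a 95% exact interval of 216 to 6484 for counting error only. *Pparg*, *Mgl2*, *Socs2* and *Tgm2* had log2 fold changes of -5.09, -3.04, -2.99 and -2.79, at edgeR adjusted p of 0.0144, 0.0147, 0.0264 and 0.0124. *Clec10a* was at 2.33 (0.0197). These 5 genes were named after their values were seen, and DESeq2 called 2 markers of the list higher and 4 lower. Over all 16436 genes with an adjusted p, DESeq2 called 967 higher and 1423 lower. Of 12 tested classical activation markers 0 were called higher and 3 lower, also with the block, with a median log2 fold change of -0.88.

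The lower ones were the T cell attracting chemokines *Cxcl9* and *Cxcl10* and *Il12a*, a subunit of interleukin 12. *Cxcl9* was at 12.1, 13.9 and 13.1 TPM in dCas9-KRAB and had 0 counts in every dCas9-KRAB-En5 library, at least 283-fold lower against a floor of 3 counts per library (adjusted p = 3.4e-05). *Cxcl10* was at 3.34, 107 and 57.8 TPM against 1.53, 2.85 and 1.09 TPM (log2 fold change -5.10, SE 0.95, adjusted p = 0.00502), so that its groups came close only at dCas9-KRAB replicate 1. *Il12a* had 123, 641 and 451 counts in dCas9-KRAB and 0, 1 and 0 in dCas9-KRAB-En5 (adjusted p = 0.000255), a pooled ratio of 721 with an interval of 129 to 28482. *Nos2*, by contrast with these markers of the same class, had an estimate above 0. No test compared the class with other genes.

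Of 16 tested other cytokines 1 was called higher and 0 lower (1 and 2 with the block), with a median log2 fold change of 0.33. *Osm*, which encodes the IL-6 family cytokine oncostatin M, was at 1.44, 4.29 and 3.28 TPM in dCas9-KRAB and at 62.4, 36.7 and 5.46 TPM in dCas9-KRAB-En5 (log2 fold change 3.14, SE 0.65, adjusted p = 0.00815). The call was lost with libraries scaled to macrophage markers (adjusted p = 0.0145), by total counts (0.0186), with both limma fits (0.0614 and 0.0452), without dCas9-KRAB-En5 replicate 1 (0.0249) and without any one control (0.0313 to 0.0604). It did not overlap between the groups, unlike *Il6* of the same family. *Il17a*, *Il24* and *Il13* had no counts in any library.

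**Figure D4:**
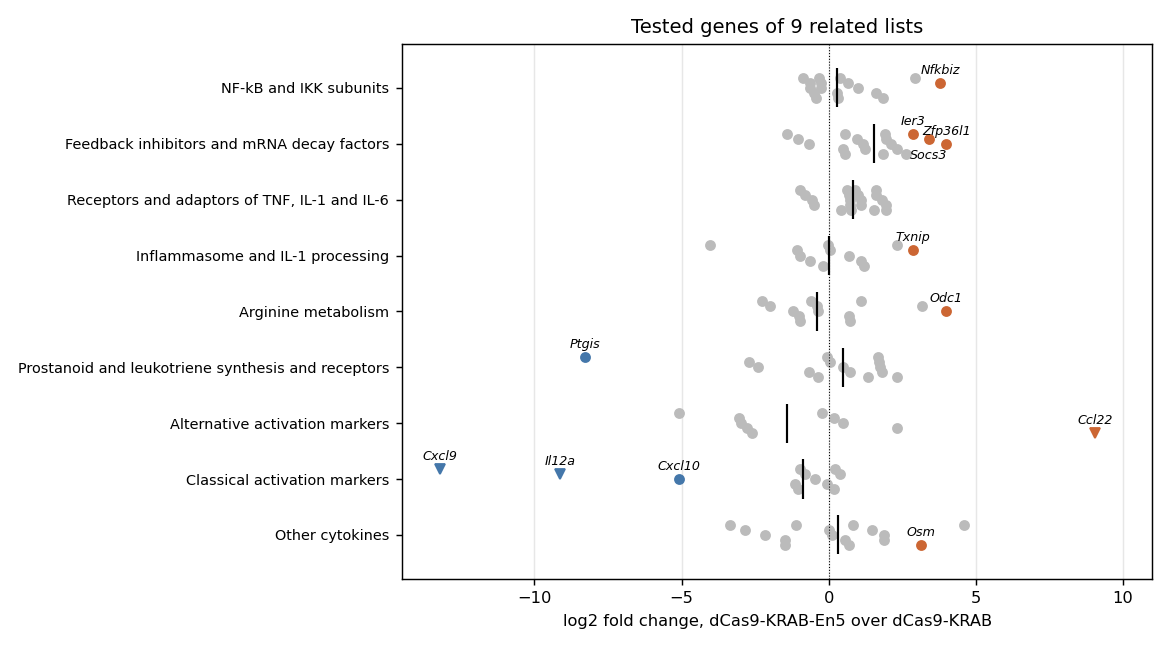
Log2 fold change (dCas9-KRAB-En5 over dCas9-KRAB) of every tested gene of the 9 lists and, as a line, the list median. Orange points were called higher, blue points lower and gray points neither; triangles mark genes with at most 3 counts in every library of a group, whose fitted value depends on the prior count. The called genes *Zfp36l1*, *Socs3* and *Ier3* lie right of the median of their list, and the called classical activation markers lie left.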

How the data were processed

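RNA-Seq of 6 libraries was used, with groups and replicate numbers from the sample labels. Per the study's methods, the authors aligned poly(A)-selected paired reads with HISAT2 2.2.1 to GRCm38, obtained gene-level reads from featureCounts, and deposited raw counts and TPM for each library; the annotation release and strand setting are not given in the sources used here. Genes not listed in a library were taken as 0, and 0 columns belonged to other samples. Symbols and overlaps came from GENCODE M21 on the same build, and promoters from RefSeq.

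Counts were compared with edgeR 4.0.16 in R 4.3.3 (TMM, filterByExpr with a minimum count of 10 and total of 15, quasi-likelihood test, Benjamini-Hochberg adjustment over 14378 genes), dCas9-KRAB-En5 over dCas9-KRAB. The fit was also run on simulated counts with the same dispersion for every gene and no outlying library. That setting differs from these libraries, so it does not show how the fit performs on them. Calls needed an adjusted p up to 0.01 and a log2 fold change of 1 or more in size. SE is the fold change over the root of F. The levels per macrophage marker used log2(CPM + 0.1) and exact permutation over libraries (scipy 1.17.1). Replicate pairs within groups differed beyond sampling noise (lowest chi-square over its degrees of freedom, 97). Same-numbered libraries of the groups deviated together (r across genes 0.262, 0.214 and 0.29, against -0.34 to -0.0508 for other pairs), so a replicate block was also fitted. Alternatives were DESeq2 1.42.0, other scalings and filters, limma 3.58.1 with TPM pseudocounts of 1 and 0.1, other cutoffs and leaving out each library. Members and lists were chosen with earlier results of these data known. All members were described; from each list the called genes were named, at most 4 per direction, or else the 2 with the highest mean TPM, and other genes named were picked after seeing values.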

Additional observations from a re-analysis of the deposited data

How the results depend on the processing

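Of the 9 tested members, 7 kept the sign of their log2 fold change in every alternative fit. The exceptions were *Il1b*, whose log2 fold change was 2.40 and ranged from -0.85 to 2.93 with 1 library left out, and *Il6*, at -0.17 and from -1.60 to 0.40. The number of members called, 1, was 2 with DESeq2, 2 with the replicate block, 2 at an adjusted p of 0.05 with no fold cutoff, 4 with no low-count filter, 0 with limma on log2(TPM + 1) and 0 on log2(TPM + 0.1), and from 0 to 4 with 1 library left out: 0 without any one dCas9-KRAB replicate and 4 without dCas9-KRAB-En5 replicate 3. The 890 genes called overall (219 higher, 671 lower) became 2390 with DESeq2, 1543 with the replicate block, 2198 with no filter, 544 with at least 10 counts in every library, 586 by total counts (70 higher, 516 lower), 514 with limma on log2(TPM + 1), 2449 at the looser cutoff and 222 to 3921 with 1 library left out. Scaling to macrophage markers, added for all genes after seeing the data, gave 123 higher and 933 lower. The members that did not overlap between groups relative to macrophage markers, 2 of 8, numbered 2 to 6 with 1 library left out. The count of 6 came without dCas9-KRAB-En5 replicate 3, the lowest library of its group for 77% of tested genes. Groups also separate more easily with fewer libraries, and the share of all tested genes apart on this scale was not computed. Over members and named genes together, 266 fold changes stayed on their side of the cutoffs, 47 lost a call, 8 gained one and 4 changed sign. The cause of these changes was not tested. With 3 libraries a group of this spread, a missed cutoff does not show equal levels, and DESeq2 gave *Il1b* no adjusted p.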
